A study of Mus musculus with 12 samples.

Results

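Type I interferon-stimulated genes (ISGs) were followed by symbol across 12 B16-F10 melanomas. The list held 46 genes, and 45 of them were matched by symbol among the 23420 genes of the count table. Ifi27 was not matched under that symbol and was not analysed here. All 45 matched genes were among the 13095 genes with enough counts to be tested, although Ifitm1 had only 0 to 22 counts per tumor.

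B16-F10 is a mouse melanoma line, so all tumors came from a single line, grown under the skin of male C57BL/6J mice. Nonobese mice ate a control diet and obese mice a Western diet with 0.2% cholesterol, begun at 4 to 5 weeks of age and given until body weight had gone up by 50%, which took 15 weeks. Once tumors could be felt, mice received anti–PD-1, an antibody that blocks an inhibitory receptor of T cells, or an isotype control antibody, each at 10 mg/kg into the peritoneum 3 times a week. Tumors were collected on day 16, and whole-tumor RNA was sequenced for 3 tumors from each combination of diet and antibody, 4 groups in all. Total counts ranged from 14022929 to 33871843 per tumor, so that the detection floor of 3 counts, in CPM, the count scaled to library size, lay between 0.0882 and 0.212. The floor covers counting error only. Melanocyte genes such as Pmel, Dct and Tyrp1 were abundant in every tumor, where the 8 melanoma markers summed to between 26040 and 31890 CPM. Each tumor is a mixture of cells, and a larger number of cells of a type cannot be told apart from more RNA per cell.

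Type I interferons bind a receptor made of Ifnar1 and Ifnar2, whose kinases Jak1 and Tyk2 activate transcription factors. These enter the nucleus and bind the interferon-stimulated response element in the promoters of ISGs. Their products restrict viruses by binding foreign RNA, degrading RNA, blocking membrane fusion or modifying proteins, and several also regulate interferon signaling itself. In tumors they are read as a trace of interferon acting on cancer, stromal and immune cells, and many of them also respond to interferon-γ, the interferon of T cells and NK cells.

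Promoters of the ISGs were searched for that response element to show what the genes share besides their name. RefSeq promoter windows on GRCm38.p6, from 250 bases before to 50 bases after a start site, were matched for 34 of the 46 genes; I830012O16Rik was matched under its current symbol, Ifit3b. Those without a matched window were Usp18, Oas1b, Oas2, Mx1, Mx2, Ifi27, Ifi27l2a, Ifi204, Rtp4, Parp9, Parp14 and Tor3a. The core of the element, GAAANNGAAA, was searched on both strands and was found in 17 of the 34 genes (50%), against 1079 of 27025 genes (3.99%) with windows of the same length. The gamma-activated sequence, TTCNNNGAA, an element of interferon-γ responses that can overlap the other motif, was found in 6 of the 34 genes (17.6%), against 9.55% of all genes. The 160 bases before the start site of the first listed window are shown for 6 genes that carry the core element, chosen because their RNA levels are described in every tumor, and for Isg20, which has none and whose level differed little. Sequences run 5′ to 3′ on the strand of the gene, and capitals mark the core element.
Ifit1 (chr19:34640729-34640888, plus strand): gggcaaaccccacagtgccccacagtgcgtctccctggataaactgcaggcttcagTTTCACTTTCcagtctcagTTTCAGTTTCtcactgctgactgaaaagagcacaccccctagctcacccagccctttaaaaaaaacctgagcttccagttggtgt
Ifit3 (chr19:34583369-34583528, plus strand): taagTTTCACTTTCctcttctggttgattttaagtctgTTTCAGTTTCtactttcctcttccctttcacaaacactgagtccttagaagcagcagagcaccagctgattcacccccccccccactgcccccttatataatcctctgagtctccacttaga
Isg15 (chr4:156200819-156200978, minus strand): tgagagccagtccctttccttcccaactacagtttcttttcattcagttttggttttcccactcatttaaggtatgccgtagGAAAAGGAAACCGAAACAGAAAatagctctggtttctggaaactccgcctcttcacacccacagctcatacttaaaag
Rsad2 (chr12:26456453-26456612, minus strand): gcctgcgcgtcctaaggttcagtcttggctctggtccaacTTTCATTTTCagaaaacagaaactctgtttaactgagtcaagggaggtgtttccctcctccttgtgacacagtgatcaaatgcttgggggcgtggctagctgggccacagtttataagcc
Bst2 (chr8:71537473-71537632, minus strand): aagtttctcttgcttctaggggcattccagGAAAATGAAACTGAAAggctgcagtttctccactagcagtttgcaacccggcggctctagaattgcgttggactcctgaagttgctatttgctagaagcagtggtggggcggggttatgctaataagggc
Apol9a (chr15:77411081-77411240, minus strand): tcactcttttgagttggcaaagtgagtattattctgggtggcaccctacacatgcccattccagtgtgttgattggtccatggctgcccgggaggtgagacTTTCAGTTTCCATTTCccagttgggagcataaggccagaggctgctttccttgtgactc
Isg20 (chr7:78913264-78913423, plus strand): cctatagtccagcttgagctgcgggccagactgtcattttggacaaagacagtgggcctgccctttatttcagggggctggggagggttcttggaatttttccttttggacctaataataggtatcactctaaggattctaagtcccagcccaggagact

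In Ifit1 the copies of the element began 104 and 85 bases before the start site, and in Ifit3 156 and 122 bases before it. Isg15 and Bst2 carried runs in which neighbouring copies shared bases, as did Apol9a. The copies in Ifit1, Ifit3, Rsad2 and Apol9a were on the opposite strand, so the capitals there show the reverse complement of the core. In Ifitm3 the copies lay after the start site. A match describes letters and does not show binding. Members with and without a match showed overlapping ranges of change: in obese against nonobese mice under anti–PD-1, 12 of 17 with the element passed the thresholds given below with a median log2 fold change of 1.39, as did 9 of 17 without it with a median of 1.15.

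With anti–PD-1 in nonobese mice, 35 of 45 ISGs had a fold change below 1 and 10 above it, against 55% of all genes above. In obese mice all 45 had a fold change above 1, against 47.6% of all genes. A gene was counted as changed if it differed by more than 2-fold and had P below 0.05 before adjustment in edgeR's quasi-likelihood test, which are the study's thresholds, and FDR values were adjusted over all genes tested. In nonobese mice 6 of 45 ISGs fell (13.3%, against 2.31% of all genes tested) and 0 rose. They were Oas3, Oasl2, Ifi27l2a, Ifi204, Apol9a and Epsti1. The median log2 fold change was -0.31 over the ISGs and 0.02 over all genes. For 11 of the 45 all treated tumors lay below all isotype tumors, which held for 5.37% of all genes.

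In obese mice 19 of 45 ISGs rose with anti–PD-1 (42.2%, against 2.24% of all genes tested) and 0 fell. The median log2 fold change was 0.88 for the ISGs and -0.01 for all genes, with a range from 0.06 for Tor3a to 3.20 for Apol9a. The treated and isotype tumors did not overlap, with the treated ones higher, for 26 ISGs (57.8%, against 5.45%). No ISG had an FDR below 0.05 from edgeR in either diet. At an unadjusted P below 0.05 there were 12 ISGs in nonobese and 36 in obese mice, against 5.23% and 7.57% of all genes. DESeq2, which models the spread differently, gave 1 and 18 ISGs at an FDR below 0.05, against 0.0701% and 0.802% of all genes. Without obese anti–PD-1 tumor 1, edgeR gave 17 ISGs of 76 genes in all in obese mice. Each of the other single omissions gave 0 ISGs there.

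Among the 45 ISGs, 35 had a lower mean with treatment in nonobese and a higher one in obese mice (77.8%, against 30.4% of all genes). Passing the thresholds in both diets in these opposite directions was seen for 6 ISGs (13.3%, against 0.557%). In the test of the difference between the obese and the nonobese response, 27 of 45 passed the same thresholds (60%, against 4.93%), all toward the obese mice. The median difference was 1.24 on the log2 scale, against -0.04 over all genes. The lowest FDR was 0.0596 from edgeR, which left 0 ISGs below 0.05, with 34 at an unadjusted P below 0.05 (12.9% of all genes) and 20 at an FDR below 0.05 by DESeq2 (2.16% of all genes). With edgeR, 20 ISGs of 197 genes in all were below 0.05 without obese anti–PD-1 tumor 1, 10 of 111 without nonobese isotype tumor 1 and 9 of 37 without nonobese anti–PD-1 tumor 3. All other single omissions left 0 ISGs below 0.05.

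**Figure D1:**
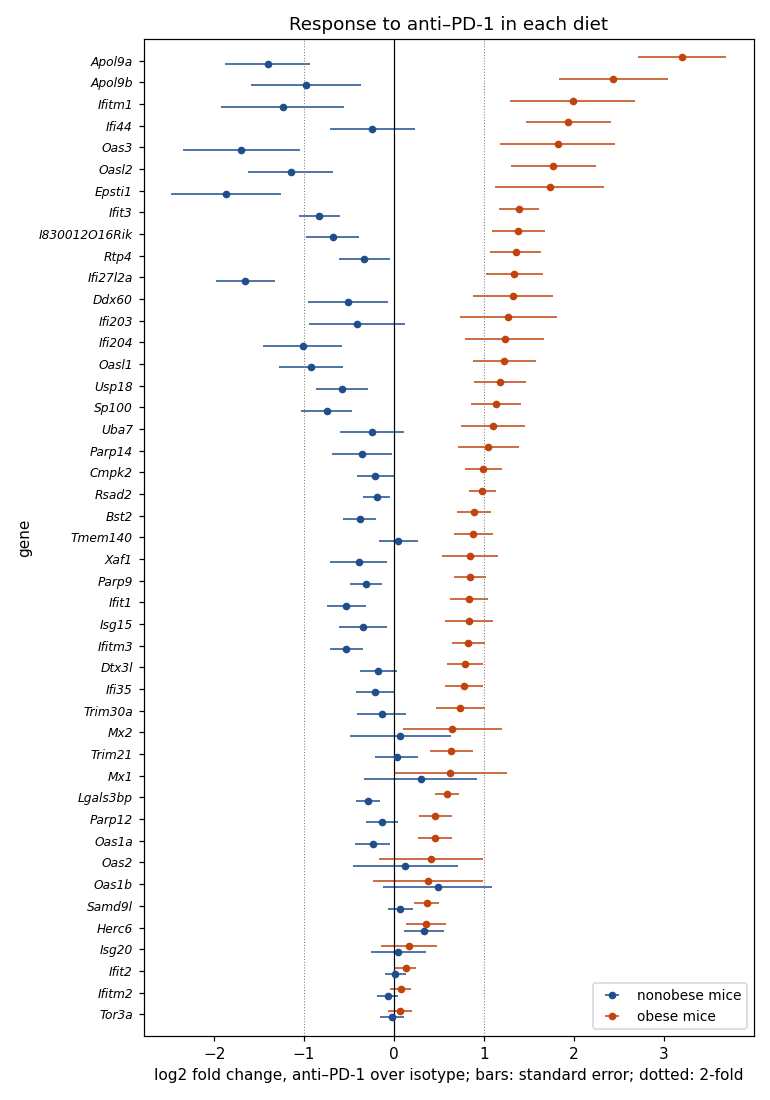
Log2 fold change of anti–PD-1 over isotype for the 45 ISGs in nonobese and obese mice (3 tumors per group, bars show standard errors from edgeR, dotted lines mark a 2-fold change). All obese values are above 0, from 0.06 to 3.20, while nonobese values run from -1.87 for Epsti1 to 0.48 for Oas1b.

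The diets were also compared under each antibody. With isotype, 2 ISGs, Apol9a and Epsti1, were lower in obese mice (4.44%, against 1.12% of all genes) and 0 were higher. The fold changes went both ways, with 23 ISGs above 1 (against 52.1% of all genes), 22 below it and a median log2 fold change of 0.03. The tumors of the diets did not overlap for 11 ISGs. Ifit1, Ifit2, Herc6, Samd9l, Tmem140 and Tor3a were the 6 (13.3%) that were higher in all obese tumors, a pattern seen in 10.4% of all genes. Ifitm1, Ifitm3, Apol9a, Epsti1 and Lgals3bp were the 5 (11.1%) that were lower in all of them, against 9.02%. Samd9l, which encodes a restriction factor of poxviruses, had the highest log2 fold change, 0.66 (standard error, SE, 0.14, FDR 0.125 from edgeR). No ISG had an FDR below 0.05 from edgeR here, 7 had an unadjusted P below 0.05 (13.3% of all genes), and DESeq2 gave 1, Samd9l, at an FDR of 0.00515 (1.85% of all genes below 0.05). Epsti1 passed the thresholds at -1.35 but no longer did so when any of 6 tumors was left out, among them obese isotype tumor 1. When Epsti1 was dropped by requiring at least 10 counts in every tumor, Apol9a was the 1 remaining gene.

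Under anti–PD-1, in a comparison that shares the obese treated tumors with the obese response above, 27 of 45 ISGs were higher in obese than in nonobese tumors past the thresholds (60%, against 3.69% of all genes tested) and 0 were lower. The median log2 fold change was 1.30, against -0.01 over all genes, and 44 of the 45 were above 0 (against 46.9% of all genes). For 30 ISGs every obese tumor lay above every nonobese tumor (66.7%, against 6.54%). Here 15 ISGs reached an FDR below 0.05 with a higher level in obese mice (33.3%, against 0.359% of all genes), and Ifit3 had the lowest FDR of all 13095 genes. DESeq2 gave 33 ISGs, against 2.06% of all genes. These 15 depended on which tumors were fitted. In a fit of only the 6 tumors compared, with fewer degrees of freedom, 0 were left, and 0 of all 12729 genes tested were below 0.05. Leaving out single tumors gave from 2 (of 2 genes in all), without nonobese anti–PD-1 tumor 2, to 32 (of 214), without obese anti–PD-1 tumor 1. The 27 past the thresholds ranged from 23 to 33 over the same omissions.

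**Figure D2:**
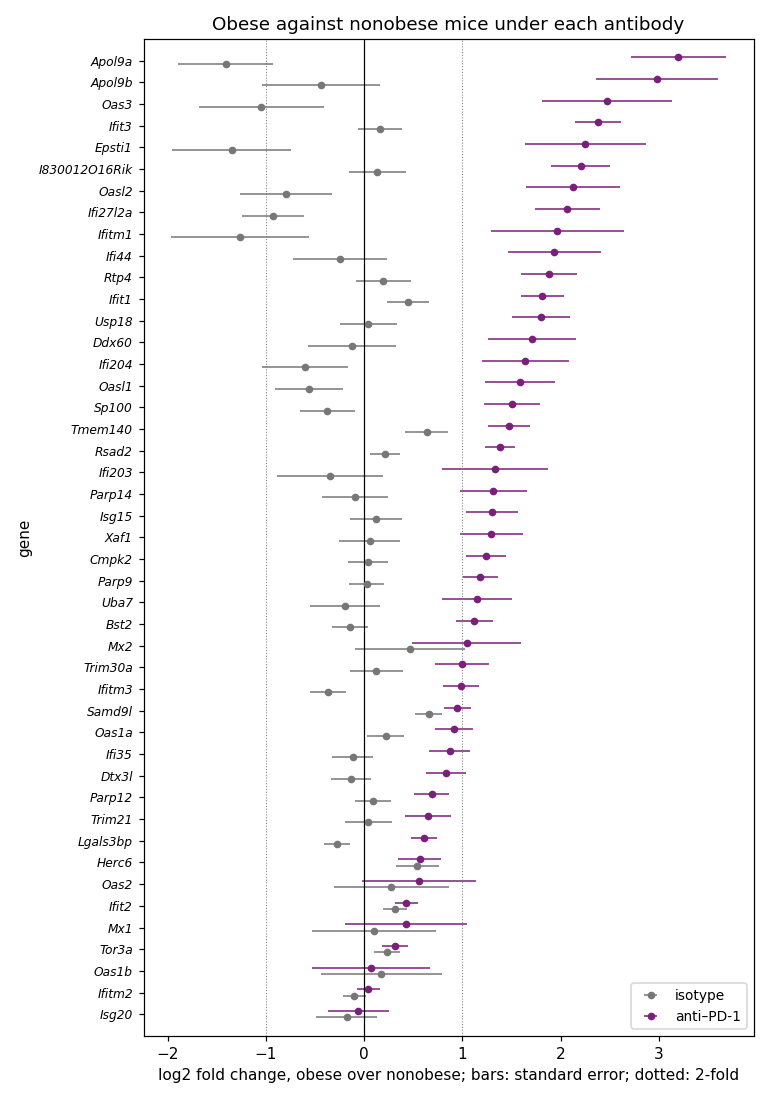
Log2 fold change of obese over nonobese mice for the 45 ISGs under isotype and under anti–PD-1 (3 tumors per group, bars show standard errors from edgeR, dotted lines mark a 2-fold change). Under isotype the values lie between -1.41 and 0.66, and under anti–PD-1 between -0.06 for Isg20 and 3.20 for Apol9a.

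The genes differed widely in abundance. Per kilobase of exon, the highest mean levels in nonobese isotype tumors were 251 CPM for Ifitm2, 184 for Ifitm3, 139 for Lgals3bp and 62.4 for Bst2, and the lowest was 0.161 for Ddx60. The same 4 genes led in obese anti–PD-1 tumors, with 253 CPM per kilobase for Ifitm3. All of the ISGs together made up between 0.0959% and 0.206% of the counts of a tumor, the most in obese anti–PD-1 tumor 2.

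The IFIT proteins bind foreign RNA at its 5′ end and block its translation. Ifit3 (chromosome 19, 34583119 to 34588982), a member of this family, was measured at 12.5, 18.3 and 15.9 CPM in nonobese isotype tumors and at 7.57, 9.12 and 9.45 CPM in nonobese anti–PD-1 tumors. It was at 16.5, 18.1 and 17.7 CPM in obese isotype tumors and at 29.1, 61.7 and 45.8 CPM in obese anti–PD-1 tumors. All treated nonobese tumors were thus below, and all treated obese tumors above, the isotype tumors of the same diet. Its log2 fold change was -0.83 (SE 0.23, FDR 0.833 from edgeR) in nonobese and 1.39 (SE 0.22, FDR 0.108) in obese mice. Between the diets under anti–PD-1 it was 2.38 (SE 0.23, FDR 0.00135 from edgeR), and the difference of the responses was 2.23 (SE 0.32, FDR 0.0596). About 31.7% of the 100-base stretches of its transcripts also occur in other genes, chiefly Ifit3b, so reads of the pair may be shared.

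Ifit1, the cap-binding member, had 8.90, 10.6 and 10.7 CPM in nonobese isotype and 7.73, 6.22 and 6.96 CPM in nonobese anti–PD-1 tumors. In obese mice it had 11.4, 14.1 and 15.6 CPM with isotype and 16.8, 32.5 and 23.9 CPM with anti–PD-1. The groups did not overlap in either diet, and obese isotype tumors were already above nonobese ones. The log2 fold change between the diets under anti–PD-1 was 1.81 (SE 0.22, FDR 0.00538 from edgeR). It was -0.53 (SE 0.22) in nonobese mice and 0.84 (SE 0.21) in obese mice, both short of a 2-fold change with all tumors. Without obese anti–PD-1 tumor 1 the obese value was 1.06, past the thresholds, and without obese anti–PD-1 tumor 2 it was 0.59. I830012O16Rik, the copy of Ifit3, reached 8.67, 10.8 and 12.2 CPM in obese anti–PD-1 tumors and 1.53 to 3.30 CPM in nonobese ones, a log2 fold change of 2.20 (SE 0.30, FDR 0.0161 from edgeR). Ifit2 stood apart from its relatives, with 35.7 to 56.8 CPM over all tumors and no comparison past the thresholds.

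**Figure D3:**
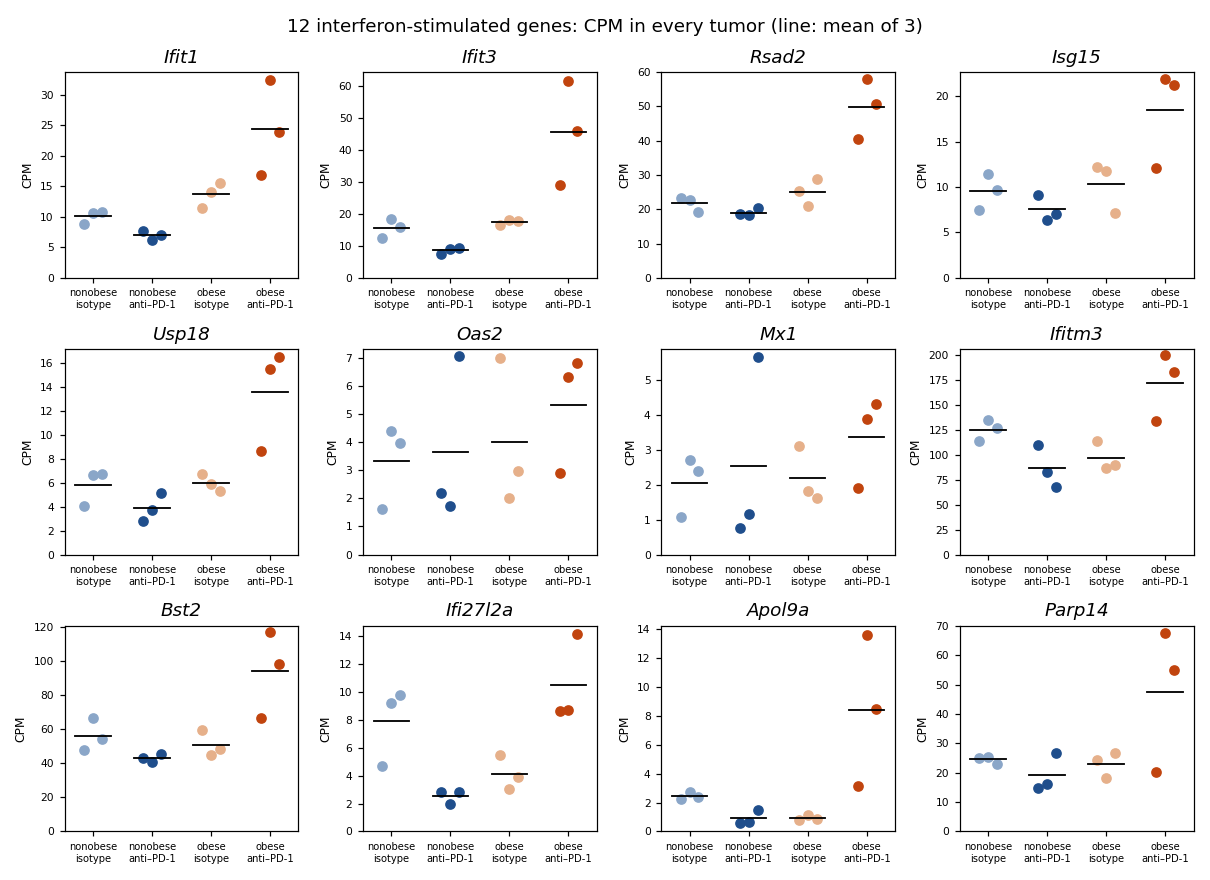
CPM in every tumor for 12 ISGs chosen to stand for their families, by group, with a line at the mean of 3 tumors. For Ifit3 the obese anti–PD-1 tumors at 29.1, 61.7 and 45.8 CPM lie above all others, while for Mx1 and Oas2 nonobese anti–PD-1 tumor 3, at 5.66 and 7.05 CPM, is the highest of all.

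The 2-5A synthetases make the messenger that switches on an RNA-degrading enzyme, and the like proteins Oasl1 and Oasl2 have related folds. Of these 6 genes, Oas3, Oasl1 and Oasl2 rose in obese mice and were higher in obese mice under anti–PD-1, and 0 of 6 fell in either of these comparisons. Oas3 had 1.32, 3.35 and 2.73 CPM in nonobese isotype and 0.407, 0.650 and 1.204 CPM in nonobese anti–PD-1 tumors. Its values were 2.06, 0.350 and 1.05 CPM in obese isotype and 1.27, 6.15 and 5.11 CPM in obese anti–PD-1 tumors. The treated tumors were below the isotype tumors in nonobese mice, and overlapped them in obese mice because of treated tumor 1. The log2 fold change in nonobese mice was -1.70 (SE 0.65, FDR 0.867 from edgeR), and it missed the thresholds without nonobese isotype tumor 2 or without nonobese anti–PD-1 tumor 1 or 2. Oasl2 at -1.15 (SE 0.47, FDR 0.905 from edgeR) passed with all tumors but not without nonobese isotype tumor 2 or 3 or nonobese anti–PD-1 tumor 1 or 2.

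Oas2 did not follow that pattern. It was at 1.64, 4.41 and 3.98 CPM in nonobese isotype, 2.19, 1.73 and 7.05 in nonobese anti–PD-1, 6.98, 2.03 and 2.96 in obese isotype and 2.89, 6.30 and 6.80 CPM in obese anti–PD-1 tumors. The highest tumor was nonobese anti–PD-1 tumor 3, and all groups overlapped. The log2 fold changes of 0.13 (SE 0.58) in nonobese and 0.41 (SE 0.58) in obese mice were smaller than their errors, as edgeR estimated them. Without nonobese anti–PD-1 tumor 3 the nonobese value was -0.79, and the gene then passed the thresholds between the diets under anti–PD-1 at 1.48. Oas1b, listed by RefSeq as a transcribed pseudogene in this strain, likewise peaked in that tumor, at 4.10 CPM against 0.559 and 0.866 in the other two.

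Mx1 and Mx2 encode GTPases that trap viral nucleocapsids, and RefSeq lists both as transcribed pseudogenes in C57BL/6J. Mx1 had 1.09, 2.704 and 2.39 CPM in nonobese isotype and 0.763, 1.18 and 5.66 CPM in nonobese anti–PD-1 tumors. It had 3.11, 1.82 and 1.62 CPM in obese isotype and 1.90, 3.89 and 4.33 CPM in obese anti–PD-1 tumors. Again nonobese anti–PD-1 tumor 3 was the highest of all. Log2 fold changes were 0.30 (SE 0.63) in nonobese and 0.63 (SE 0.63) in obese mice by edgeR, and no comparison of either Mx gene passed the thresholds with all tumors. Without that tumor Mx1 was at -1.08 in nonobese mice and passed the thresholds between the diets under anti–PD-1, at 1.81.

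Among enzymes acting on nucleotides and RNA, Rsad2 (viperin), which makes a chain-terminating nucleotide, had narrow groups. Its levels were 23.3, 22.8 and 19.1 CPM in nonobese isotype and 18.7, 18.2 and 20.2 CPM in nonobese anti–PD-1 tumors. They were 25.4, 21.1 and 28.9 CPM in obese isotype and 40.4, 58.1 and 50.7 CPM in obese anti–PD-1 tumors. The last group lay above the other 9 tumors. The log2 fold change in obese mice was 0.98 (SE 0.15, FDR 0.108 from edgeR), just short of a 2-fold change. Among single omissions it exceeded 2-fold only without obese anti–PD-1 tumor 1, at 1.13, and without obese isotype tumor 1 or 3. Between the diets under anti–PD-1 it was 1.39 (SE 0.15, FDR 0.00293 from edgeR), and the difference of responses was 1.18 (SE 0.21, FDR 0.103). Cmpk2, which supplies Rsad2 with substrate from the neighbouring gene on chromosome 12, and Ddx60, a helicase of RNA sensing, were also higher under anti–PD-1 in obese mice. The RNA exonuclease gene Isg20 was not, with 5.80 to 13.9 CPM over all tumors and a log2 fold change of -0.06 (SE 0.31, FDR 0.974 from edgeR).

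Isg15 is a ubiquitin-like protein that Uba7 activates, Herc6 attaches and Usp18 removes, and Usp18 also dampens the type I receptor. Isg15 was at 7.42, 11.4 and 9.71 CPM in nonobese isotype and at 9.15, 6.37 and 7.05 CPM in nonobese anti–PD-1 tumors. It was at 12.2, 11.8 and 7.16 CPM in obese isotype and at 12.1, 21.9 and 21.3 CPM in obese anti–PD-1 tumors. The obese groups overlapped, since treated tumor 1 was just below the highest isotype tumor. The log2 fold change was -0.34 (SE 0.27) in nonobese and 0.83 (SE 0.27, FDR 0.415 from edgeR) in obese mice. The obese value passed the thresholds, at 1.08, only without obese anti–PD-1 tumor 1. Under anti–PD-1 the diets differed by 1.30 (SE 0.27, FDR 0.0593 from edgeR), and the responses by 1.18 (SE 0.38, FDR 0.217), a call lost without obese isotype tumor 3.

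Usp18 had 4.08, 6.67 and 6.76 CPM in nonobese isotype, 2.80, 3.74 and 5.13 in nonobese anti–PD-1, 6.73, 5.88 and 5.35 in obese isotype and 8.67, 15.5 and 16.5 CPM in obese anti–PD-1 tumors. Treated obese tumors were above all others, while the nonobese groups overlapped. It rose in obese mice by 1.18 on the log2 scale (SE 0.29, FDR 0.220 from edgeR) and was higher than in nonobese mice under anti–PD-1 by 1.80 (SE 0.29, FDR 0.0264). Uba7 passed the thresholds in the same comparisons. Herc6 did not, at 14.9 to 42.0 CPM over all tumors.

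Of the membrane restriction factors, Ifitm3, which hinders fusion of viruses with endosomes, and Bst2 (tetherin), which holds budding particles at the cell surface, were among the most abundant ISGs. Ifitm3 had 114, 134 and 127 CPM in nonobese isotype and 109, 83.0 and 68.0 CPM in nonobese anti–PD-1 tumors. It had 114, 86.9 and 89.4 CPM in obese isotype and 134, 199 and 182 CPM in obese anti–PD-1 tumors. In both diets the treated tumors lay outside the isotype range, on opposite sides. The log2 fold changes, -0.53 (SE 0.18, FDR 0.833 from edgeR) and 0.83 (SE 0.18, FDR 0.202), were within 2-fold. The obese one ran from 0.72, without obese anti–PD-1 tumor 2, to 1.0003, without obese anti–PD-1 tumor 1. The difference of the responses was 1.36 (SE 0.26, FDR 0.107 from edgeR). Between the diets under anti–PD-1 the change of 0.99 (SE 0.18, FDR 0.0408 from edgeR) was within 2-fold by a small margin, and exceeded it at 1.15 without obese anti–PD-1 tumor 1. Over all single omissions it ran from 0.86, without nonobese anti–PD-1 tumor 3, to 1.19, without nonobese anti–PD-1 tumor 1.

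Bst2 was at 47.8, 66.6 and 54.6 CPM in nonobese isotype, 43.3, 41.1 and 45.4 in nonobese anti–PD-1, 59.4, 44.8 and 48.4 in obese isotype and 67.0, 117 and 98.4 CPM in obese anti–PD-1 tumors. It showed the same order as Ifitm3, with no overlap in either diet. It was higher in obese than in nonobese mice under anti–PD-1 by 1.12 on the log2 scale (SE 0.19, FDR 0.0264 from edgeR), which fell below a 2-fold change, at 0.93, without obese anti–PD-1 tumor 2. Its responses were -0.38 (SE 0.18, FDR 0.929 from edgeR) in nonobese and 0.89 (SE 0.18, FDR 0.192) in obese mice. The latter passed the thresholds at 1.10 without obese anti–PD-1 tumor 1 and at 1.04 without obese isotype tumor 1, and was 0.71 without obese anti–PD-1 tumor 2. Ifitm2, in the same cluster on chromosome 7 as Ifitm3, differed from it: the range over all tumors was 132 to 181 CPM, and no comparison passed the thresholds. It shares 34.9% of its 100-base stretches with other genes.

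The PARP proteins of this list add or read ADP-ribose, and Dtx3l is the ubiquitin ligase partner of Parp9. Parp14 had 25.1, 25.5 and 23.1 CPM in nonobese isotype and 14.6, 16.1 and 26.8 CPM in nonobese anti–PD-1 tumors. It had 24.2, 18.1 and 26.7 CPM in obese isotype and 20.4, 67.4 and 54.8 CPM in obese anti–PD-1 tumors. Treated obese tumor 1 was within the isotype range and the other 2 were above it. The log2 fold change in obese mice, 1.05 (SE 0.34, FDR 0.428 from edgeR), fell below 2-fold without obese isotype tumor 2 or obese anti–PD-1 tumor 2 or 3, and with the replicate number as a block, at 0.97. Under anti–PD-1 the diets differed by 1.32 (SE 0.34, FDR 0.132 from edgeR), a call lost without obese anti–PD-1 tumor 2, at 0.98. Parp9, from a promoter region shared with Dtx3l, was at 34.8, 56.6 and 49.0 CPM in obese anti–PD-1 and 17.6, 18.7 and 25.5 CPM in nonobese anti–PD-1 tumors, which did not overlap, with a log2 fold change of 1.19 (SE 0.18, FDR 0.0182 from edgeR). Exons of Parp9 and Dtx3l overlap on opposite strands over 9.4% of the Parp9 exon bases.

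Of the 3 TRIM and nuclear body genes, Sp100 rose in obese mice and was higher in them under anti–PD-1, and Trim21 and Trim30a did not pass the thresholds in any comparison. Of the 5 measured IFI and p200 genes, whose p200 members sense DNA, 4 passed in obese mice and in the comparison of the diets under anti–PD-1, and Ifi35 passed in neither. Ifi27l2a (chromosome 12, 103433873 to 103443680) had 4.72, 9.23 and 9.77 CPM in nonobese isotype and 2.80, 1.95 and 2.81 CPM in nonobese anti–PD-1 tumors. It had 5.47, 3.01 and 3.87 CPM in obese isotype and 8.60, 8.71 and 14.1 CPM in obese anti–PD-1 tumors. Unlike most ISGs it was as high in treated obese tumor 1 as in tumor 2. The change between the diets under anti–PD-1 was 2.07 (SE 0.33, FDR 0.0260 from edgeR). Ifi204 fell in nonobese mice by 1.01 on the log2 scale (SE 0.44, FDR 0.924 from edgeR), a call lost without any of 5 single tumors, among them nonobese anti–PD-1 tumor 1, at -0.74, and in the model of only the tumors compared.

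Among the remaining genes, Apol9a (chromosome 15, 77403789 to 77411080), an apolipoprotein L gene, was at 2.22, 2.704 and 2.39 CPM in nonobese isotype and at 0.610, 0.680 and 1.47 CPM in nonobese anti–PD-1 tumors. In obese mice it was at 0.799, 1.12 and 0.859 CPM with isotype and at 3.17, 13.6 and 8.49 CPM with anti–PD-1. No pair of groups overlapped except nonobese anti–PD-1 and obese isotype. Obese isotype tumors had less than nonobese ones, with a log2 fold change of -1.41 (SE 0.48, FDR 0.283 from edgeR), and obese anti–PD-1 tumors more, by 3.20 (SE 0.48, FDR 0.0182). Apol9b, which shares 36.7% of its 100-base stretches with other genes, chiefly Apol9a, ranged from 0.526 to 13.6 CPM, and reads of the pair may not be separable.

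Epsti1, named for its induction where epithelial and stromal cells meet, had 1.32, 2.998 and 3.24 CPM in nonobese isotype and 0.508, 0.928 and 0.580 CPM in nonobese anti–PD-1 tumors, which lay below, with a log2 fold change of -1.87 (SE 0.61, FDR 0.833 from edgeR). Rtp4, a chaperone of receptors, had 4.34, 6.38 and 6.02 CPM in nonobese isotype and 3.76, 3.06 and 6.51 CPM in nonobese anti–PD-1 tumors. In obese mice it went from 6.48, 6.44 and 6.25 CPM to 11.7, 21.1 and 16.1 CPM with no overlap, a log2 fold change of 1.35 (SE 0.28, FDR 0.192 from edgeR). Tmem140 was at 18.7, 28.9 and 18.5 CPM in obese anti–PD-1 and at 6.10, 8.32 and 9.32 CPM in nonobese anti–PD-1 tumors, a log2 fold change of 1.48 (SE 0.22, FDR 0.0182 from edgeR). About 37% of the exon bases of Tmem140 lie opposite exons of Cyren, and whether counting used strand is not given in the sources used here. Tor3a, an ATPase of the endoplasmic reticulum, differed least in obese mice, with 32.2, 28.3 and 29.1 CPM with isotype and 24.2, 35.0 and 34.3 CPM with anti–PD-1.

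The treated tumors were not uniform. In obese mice, the mean log2 CPM of the 45 ISGs, each centered on its mean over the 12 tumors, was 0.23 in anti–PD-1 tumor 1, 1.10 in tumor 2 and 0.97 in tumor 3. Tumor 2 held the highest value of all tumors for 31 ISGs and tumor 3 for 9. Of the 45 ISGs, tumor 1 exceeded all obese isotype tumors for 27, tumor 2 for 42 and tumor 3 for 40, against 21.8%, 19.9% and 21.8% of all genes. In nonobese mice, anti–PD-1 tumors 1 and 2 had means of -0.74 and -0.72 and tumor 3 a mean of -0.11. Tumors 1 and 2 lay below all nonobese isotype tumors for 35 of the 45 ISGs each, against 27.6% and 24.5% of all genes, and tumor 3 did so for 17, a share close to its 35% of all genes. Leaving out obese anti–PD-1 tumor 1 raised the ISGs past the thresholds in obese mice from 19 to 29, and the share of all genes from 2.24% to 4.16%. Their number went down to 13 without obese anti–PD-1 tumor 2 and to 16 without tumor 3, with 1.46% and 1.41% of all genes. Leaving out nonobese anti–PD-1 tumor 3 raised the ISGs past the thresholds in nonobese mice from 6 to 12. It moved the ISG median there to -0.70, and the share of all genes that fell went from 2.31% to 3.58%. Leaving out nonobese anti–PD-1 tumor 1 or 2 or nonobese isotype tumor 2 left 3 ISGs, with 1.35%, 1.83% and 1.29% of all genes.

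**Figure D4:**
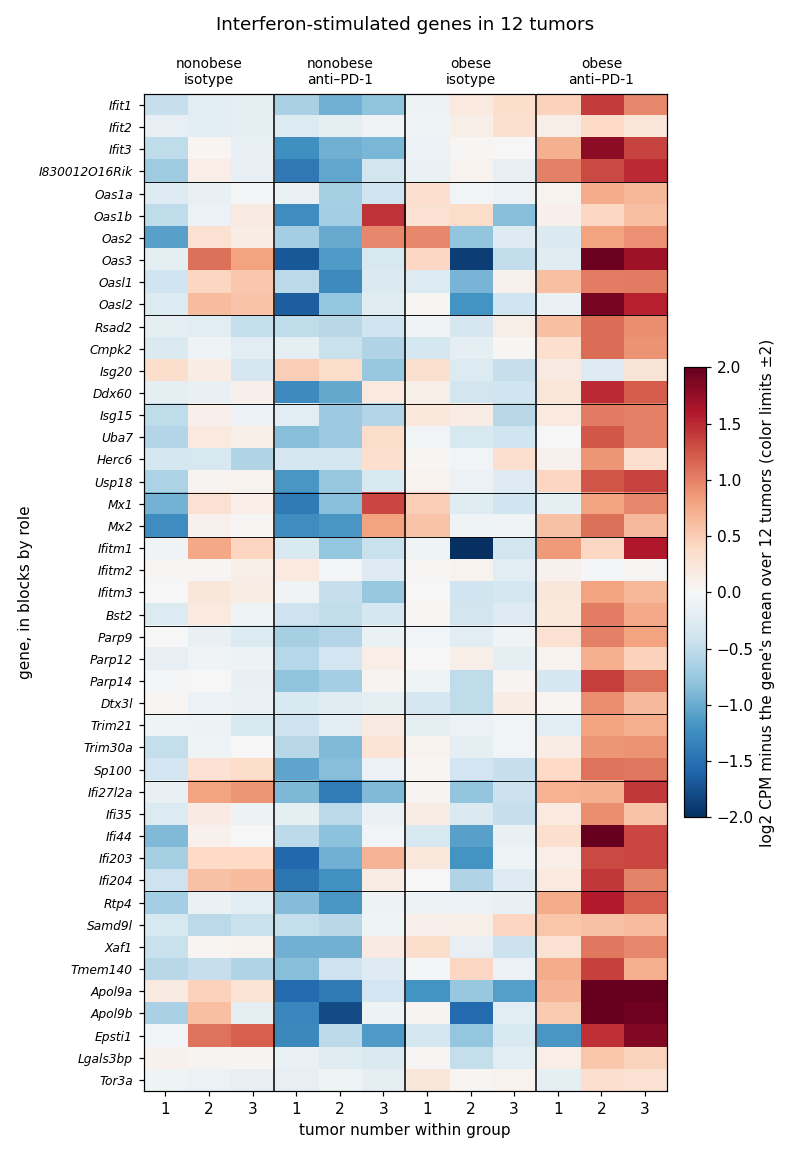
Log2 CPM of 45 ISGs (rows, in blocks by role) in 12 tumors (columns, 3 per group), centered on each gene's mean, with red above and blue below that mean and colors limited at 2 in either direction. Obese anti–PD-1 tumors 2 and 3, with means of 1.10 and 0.97, are red over most rows, tumor 1 at 0.23 is paler, and nonobese anti–PD-1 tumors 1 and 2, at -0.74 and -0.72, are blue.

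The pathway that acts before the ISGs was examined with genes listed by role. RNA of type I interferons was near absent. Ifnb1 had 6 counts in obese isotype tumor 3, 1 count each in nonobese isotype tumors 1 and 2, and 0 in the other 9 tumors, and every Ifna gene in the table had 0 counts in all tumors. Ligands of type III, Ifnl2 and Ifnl3, also had 0. Ifng, the type II ligand, had 0 to 4 counts in 10 of the tumors and 12 and 6 counts in obese anti–PD-1 tumors 2 and 3. A count of 0 here means below the floor given above. The receptor chains Ifnar1 and Ifnar2 were present in every tumor, at 71.9 to 128 and at 40.8 to 49.6 CPM. Of 6 receptor genes, 0 passed the thresholds between the diets under anti–PD-1. In obese mice Ifnlr1, the type III chain, fell by 1.22 on the log2 scale (SE 0.38, FDR 0.412 from edgeR).

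Among the kinases and transcription factors of the pathway, Irf1 and Irf7 were higher in obese mice under anti–PD-1. Irf7, which amplifies type I interferon production, was at 5.74, 4.89 and 9.14 CPM in nonobese anti–PD-1 and at 8.60, 28.0 and 30.0 CPM in obese anti–PD-1 tumors, which overlapped through obese tumor 1. Negative regulators, 6 genes with Socs1 among them, gave 0 calls in either direction in every comparison. Genes induced mainly by interferon-γ were also compared. Of 12 tested, 11 were higher in obese mice under anti–PD-1, 10 rose in obese mice, and in nonobese mice 1, Cd74, fell. Gbp2, a GTPase of this set, was at 11.5, 21.3 and 39.8 CPM in nonobese anti–PD-1 and at 41.3, 254 and 143 CPM in obese anti–PD-1 tumors. The Igtp values in those groups were 5.24, 10.1 and 21.9 CPM and 29.1, 173 and 91.2 CPM.

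Markers of immune and stromal cells also differed between the groups. The 3 leukocyte markers Ptprc, Coro1a and Laptm5 summed to 47.6 to 104 CPM in nonobese isotype, 32.2 to 37.3 in nonobese anti–PD-1, 23.5 to 52.9 in obese isotype and 39.7, 116 and 118 CPM in obese anti–PD-1 tumors. All 3 passed the thresholds in obese mice. The 8 T cell markers summed to 1.54 to 3.41 CPM in nonobese isotype, 0.610 to 1.69 in nonobese anti–PD-1, 1.35 to 2.34 in obese isotype and 4.16, 14.9 and 13.3 CPM in obese anti–PD-1 tumors. Of the 6 tested, 6 were higher in obese than in nonobese mice under anti–PD-1. The 9 macrophage and monocyte markers in the table summed to 230 to 498 CPM in nonobese isotype, 154 to 223 in nonobese anti–PD-1, 186 to 317 in obese isotype and 263 to 508 CPM in obese anti–PD-1 tumors. Fibroblast markers summed to 484 to 1951, 221 to 404, 125 to 731 and 306 to 1335 CPM in the same order of groups, and adipocyte markers to 2.86 to 7.26, 0.407 to 1.92, 0.883 to 2.45 and 5.46 to 21.0 CPM. Between the diets under anti–PD-1, 6 of 9 macrophage, 3 of 6 fibroblast and 5 of 5 adipocyte markers were higher in obese mice. So were 3 of 3 leukocyte, 2 of 3 conventional dendritic cell, 1 of 2 B cell and 1 of 5 endothelial markers tested. The 1 NK cell marker tested was higher as well. In the obese response, where 19 ISGs rose, 5 of 6 T cell, 1 of 9 macrophage, 0 of 6 fibroblast and 5 of 5 adipocyte markers rose. So did 1 of 3 conventional dendritic cell, 1 of 2 B cell and 1 of 5 skeletal muscle markers, and the 1 NK cell marker tested. In nonobese mice, where 6 ISGs fell with treatment, 4 of 9 macrophage, 4 of 6 fibroblast and 3 of 5 adipocyte markers fell. The same held for 1 of 3 leukocyte, 1 of 6 T cell, 1 of 3 conventional dendritic cell and 1 of 5 endothelial markers. Fibroblast sums of nonobese isotype tumors 2 and 3, at 1702 and 1951 CPM, were the highest of all tumors, while the mean centered ISG levels of these tumors were 0.13 and 0.04. Obese anti–PD-1 tumor 1, with the lowest ISG levels of its group, also had the lowest leukocyte, T cell, macrophage and fibroblast sums of its group. The same held for its NK cell, conventional dendritic cell, endothelial and skeletal muscle sums, at 0.78, 7.76, 94.1 and 28.1 CPM. Its adipocyte sum of 15.4 CPM, however, was above the 5.46 CPM of tumor 2, and its neutrophil sum of 3.46 CPM was the highest of its group. Plasmacytoid dendritic cells are a main source of type I interferon. Of their markers, Siglech had 8 and 6 counts in obese anti–PD-1 tumors 2 and 3, 0 in tumor 1, 0 to 1 in obese isotype tumors, 0 to 4 in nonobese anti–PD-1 tumors and 2, 12 and 2 in nonobese isotype tumors. Pacsin1, the 1 marker with enough counts to be tested, passed in no comparison. The part of cell content in the ISG differences was not tested. Melanoma markers gave 0 of 8 past the thresholds in every comparison.

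**Figure D5:**
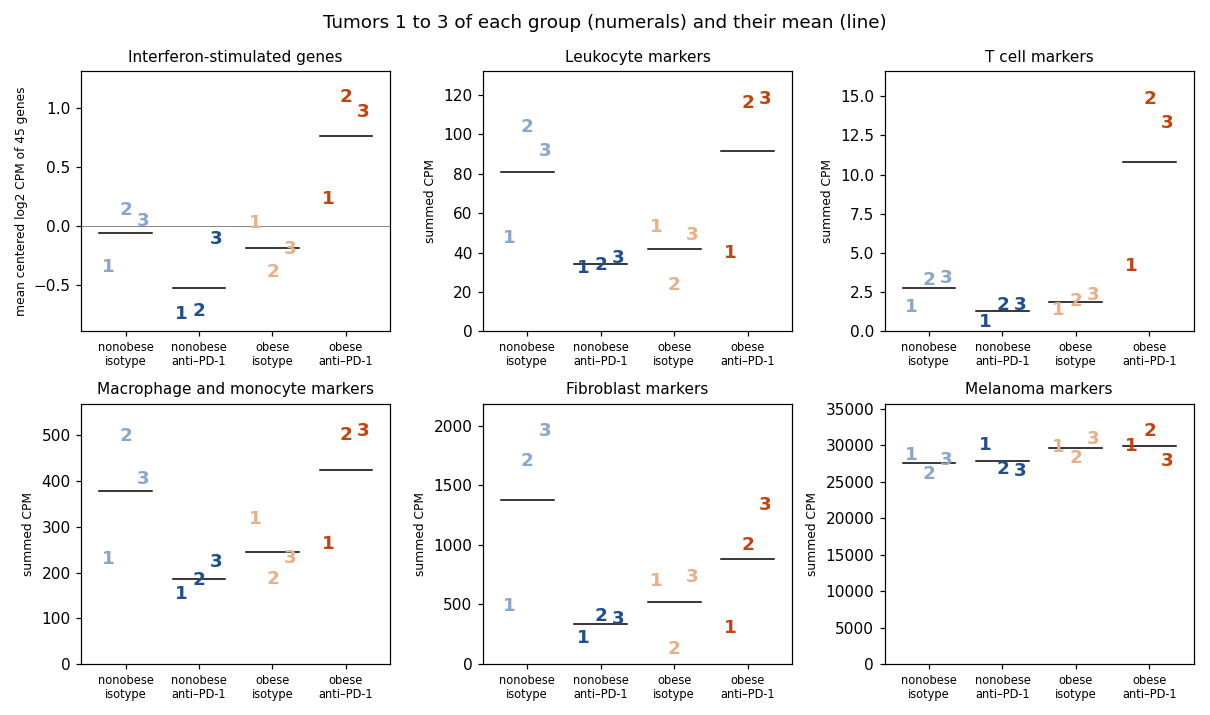
Mean centered log2 CPM of the 45 ISGs and summed CPM of 5 marker lists in each tumor, with numerals for tumors 1 to 3 of a group and a line at the group mean. Obese anti–PD-1 tumors 2 and 3 are high for ISGs (1.10 and 0.97), leukocyte (116 and 118 CPM) and T cell markers (14.9 and 13.3 CPM), whereas melanoma markers stay between 26040 and 31890 CPM.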

How the data were processed

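Whole-tumor RNA of 12 tumors was sequenced as stranded poly(A) libraries with single-end reads of 100 bases. According to the submitters' processing notes, FastQC 0.11.5, STAR 2.7.0f, HTSeq 0.9.1 and edgeR 3.28.1 were used with mm10, and the authors deposited raw counts per gene without normalization. The annotation and the strand setting of counting are not given in the sources used here. Counts were taken as deposited, filtered with filterByExpr (13095 genes kept), scaled by TMM and tested with the quasi-likelihood F-test of edgeR 4.0.16 under R 4.3.3, in the earlier form of glmQLFit, with 4 group means and 8 residual degrees of freedom. CPM values used TMM-scaled library sizes, and log2 CPM a prior count of 2. FDR values are Benjamini-Hochberg over all genes tested. Standard errors were derived from the F statistic. With 3 tumors against 3, an exact permutation test cannot give a two-sided p below 0.1. The P values set differences of group means against the spread between these tumors. The labels do not say how replicates were separated.

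Per-gene values follow a rule: 12 genes standing for the roles, the 6 changed ISGs with the smallest P in each comparison, and the ISGs with the largest and smallest fold change. Other ISGs are given by counts and ranges, apart from a few named from the overlap of groups or as contrasts to these. The members, lists and motifs were chosen with earlier results of these data known. Alternatives were RLE scaling, DESeq2 1.42.0, other filters, other forms of the fit, a replicate block and leaving out each tumor. The code was tested on simulated data. A gene of the signaling pathway is not reported here. Positions and promoter windows come from RefSeq on GRCm38.p6, the assembly behind mm10, and exon lengths and shared 100-base stretches from GENCODE M21.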

Additional observations from a re-analysis of the deposited data

Results flagged for a closer look

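For 8 of 45 ISGs (17.8%, against 0.718% of all genes), every treated tumor lay below the isotype tumors in nonobese mice and above them in obese mice. The opposite directions chose these genes, so the difference between their responses is a description and no further support. It is given for the 7 in which it was more than 2-fold. This difference was 1.37 on the log2 scale for Ifit1, 2.23 for Ifit3, 3.23 for Ifitm1, 1.36 for Ifitm3, 1.27 for Bst2, 2.99 for Ifi27l2a and 4.61 for Apol9a. Ifitm1 rested on 0 to 22 counts per tumor.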

How the results depend on the processing

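Over all alternatives, 88 recomputed counts of changed ISGs stayed within 1.5 times the reported count and 11 did not. When single tumors were left out, the ISGs past the thresholds numbered 3 to 12 in nonobese mice, 13 to 29 in obese mice, 1 to 3 between the diets with isotype, 23 to 33 under anti–PD-1 and 25 to 32 for the difference of responses. In that order and in the same direction, the share of all genes ran from 1.29% to 3.68%, 1.41% to 4.16%, 0.399% to 2.74%, 2.34% to 5.17% and 3.88% to 6.36%. A filter of at least 10 counts in every tumor left 1 between the diets with isotype. The medians ranged from -0.70 to -0.18 in nonobese mice and from 1.06 to 1.66 between the diets under anti–PD-1. Between the diets with isotype the median changed sign, with a range from -0.15 to 0.03. For some single genes the direction reversed as well. Without single tumors the nonobese response ran from -0.79 to 0.48 for Oas2, from -1.08 to 0.72 for Mx1 and from -0.87 to 0.91 for Oas1b. The obese response ran from -0.018 to 0.23 for Tor3a. The difference of responses ran from -0.068 to 1.21 for Oas2, from -0.080 to 1.72 for Mx1 and from -0.51 to 1.26 for Oas1b, and Isg20 between the diets under anti–PD-1 from -0.34 to 0.16. The cause was not tested.

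Tumors that share a replicate number were compared. Their departures from the means of their groups had an average correlation of 0.133, with 10 of 18 pairs above 0.1, against -0.062 and 13 of 36 for tumors of different numbers. Departures within a group cancel out, so these averages depend on each other and cannot show whether a number marks a shared batch. Since the labels name no shared animal or batch, the numbers were not taken to pair the tumors. With the replicate number as a block, 6, 17, 2, 29 and 27 ISGs passed the thresholds in the nonobese response, the obese response, the diets with isotype, the diets under anti–PD-1 and the difference, against 2.67%, 2.37%, 1.33%, 3.91% and 5.19% of all genes. Oas2 then stood at -0.00043 in nonobese mice and Isg20 at 0.025 between the diets under anti–PD-1. At an FDR below 0.05 between the diets under anti–PD-1, 15 to 20 ISGs passed in other edgeR fits of all tumors, where 43 to 104 genes passed in all. Where edgeR gave 0 at that FDR, a filter of at least 1 count gave 3 ISGs (of 6 genes) in obese mice and 9 (of 55) for the difference of responses. The replicate block gave 1 (of 2) and 3 (of 11), and for the difference the robust prior gave 3 (of 5) and the filter of 10 counts 2 (of 2). Ifitm1 had 0 to 22 counts per tumor, near the floor of 3 counts, and the part of depth in its values was not tested.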
